A study of Mus musculus with 16 samples.

Results

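Eph receptors and their ephrin ligands were described across bulk RNA-seq libraries of mouse colon organoids, which are hollow epithelial structures grown from colon stem cells in a gel. The set held 10 genes taken by name from the 22 Eph and ephrin genes of the annotation, among 54123 genes with summed reads. It comprised 4 EphB receptors (Ephb2, Ephb3, Ephb4 and Ephb6), 3 EphA receptors (Epha1, Epha2 and Epha4) and 3 ephrins (Efna1, Efnb1 and Efnb2). For each gene the estimated reads of all its transcripts were added within each of the 16 libraries, and all 10 genes passed the filter on low counts that left 15289 genes for testing.

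The 16 libraries formed 8 groups of 2 biological replicates. Organoids came from the proximal or the distal colon, carried a lentivirus with Cas9 and either Scramble-sgRNA (the control guide) or Cdx2-sgRNA (a guide against Cdx2, a homeobox transcription factor of the intestinal epithelium), and ended in either WENR-plus or WENR-minus medium. WENR-plus medium held Wnt3a, EGF, Noggin and R-spondin 1, and WENR-minus medium held none of them. Wnt3a, Noggin and R-spondin 1 were added as conditioned media, so they cannot be told apart from the other contents of those media. The donors were female mice of 8 weeks, heterozygous for a Cre-inducible BrafV600E allele (B6.129P2(Cg)-Braftm1Mmcm/J) and for a tdTomato reporter, and no Cre was among the treatments named for these groups. All organoids were selected with blasticidin and were in month 4 of culture, with 2 days in WENR-plus medium before 3 days in the medium named. Organoids with Cdx2-sgRNA were raised from single cells and taken on when both Cdx2 alleles held a frameshift, a step not described for Scramble-sgRNA organoids, so clonal origin and the guide cannot be told apart in that comparison. The organoids came from 2 mice, and with n = 2 a group the spread below is between a pair of libraries.

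Eph receptors are the largest family of receptor tyrosine kinases, and ephrins are their ligands on neighbouring cells. EphA receptors mostly bind ephrin-A ligands, which sit on the membrane through a lipid anchor, and EphB receptors mostly bind ephrin-B ligands, which span it, while Epha4 binds ligands of both classes. Contact activates the receptor on one cell and, for many pairs, sends a reverse signal into the cell that carries the ephrin, and the common outcome is that cells repel each other or stay in separate compartments. In the crypts of the intestine Wnt signalling keeps Ephb2 and Ephb3 high in stem and progenitor cells at the base, ephrin-B1 and ephrin-B2 are high in the differentiated cells above, and the opposed gradients position cells along the crypt.

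Libraries held 12465194 to 18922143 reads (median 16836530), and transcripts of the mitochondrial ribosomal RNAs took 15.4% to 28.0% of them. In CPM (read counts scaled to the library size, with TMM factors), the summed level of 6 epithelial markers was between 2380 and 12300 in all libraries, while the glial marker Sox10 had no reads in any library and the 5 endothelial markers summed to at most 3.7 CPM. The 7 stromal markers summed to 1.89 to 7.87 CPM in Scramble-sgRNA, 0.264 to 0.594 CPM in proximal Cdx2-sgRNA and 3.22 to 5.73 CPM in distal Cdx2-sgRNA libraries, with Pdgfrb at 1.83 to 6.75 CPM in Scramble-sgRNA and at most 0.106 CPM in proximal Cdx2-sgRNA libraries, and Dcn and Lum at 0 reads in all. The 5 immune markers summed to at most 1.62 CPM in Scramble-sgRNA libraries, to 6.29 to 25.8 CPM in proximal Cdx2-sgRNA libraries and to 2.26 to 3.64 CPM in distal Cdx2-sgRNA libraries, mostly from Csf1r (up to 19.4 CPM) and Cd68 (up to 9.94 CPM), with Ptprc at no more than 0.891 CPM and Cd3e at no more than 0.0529 CPM. Cdx2 RNA was lower with Cdx2-sgRNA in proximal organoids (log2 difference -1.29 without and -2.09 with WENR factors, adjusted p = 0.000679 and 5.48e-05) but not by the test in distal organoids (-0.07 and -0.36, adjusted p = 0.876 and 0.857), and RNA level does not measure a frameshift.

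Differences were tested with edgeR's quasi-likelihood test on the summed reads of all 16 libraries, with Benjamini-Hochberg adjustment over the 15289 genes. A gene is said to have risen or fallen only where adjusted p was under 0.05 and the log2 difference was beyond 1 in size. Each value below is a log2 difference with its standard error (SE), and levels are given for replicate 1 and then replicate 2. Since these are bulk libraries, fewer cells of a type and less RNA per cell cannot be told apart in any of them.

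Per transcript length, in TPM (read counts divided by transcript length and scaled to the library), Efna1 was the most abundant member, with a mean of 137 TPM over all libraries, followed by Ephb2 (65.2), Efnb2 (64.9), Epha2 (42.2) and Efnb1 (41.1). Ephb4 (19.7), Epha4 (18.1), Ephb3 (14.6), Epha1 (6.36) and Ephb6 (1.04) were lower. The 3 ephrins together reached 244 to 534 TPM in WENR-minus libraries and 111 to 187 TPM in WENR-plus libraries, with no overlap, and were highest in distal Cdx2-sgRNA WENR-minus organoids (534 and 450 TPM). The 7 receptors together ranged from 102 to 227 TPM. In distal organoids they were higher in WENR-plus medium without overlap, at 177 and 213 against 102 and 123 TPM with Scramble-sgRNA and at 183 and 199 against 114 and 109 TPM with Cdx2-sgRNA. The media were also separate in proximal Scramble-sgRNA organoids (203 and 184 against 149 and 181 TPM). They overlapped in proximal Cdx2-sgRNA organoids (191 and 161 against 227 and 160 TPM).

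The ephrin sum divided by the receptor sum was above 1 in all 8 WENR-minus libraries and below 1 in all 8 WENR-plus libraries. In WENR-minus medium it was 1.76 and 1.39 in proximal Scramble-sgRNA, 1.07 and 1.79 in proximal Cdx2-sgRNA, 3.1 and 3.31 in distal Scramble-sgRNA and 4.67 and 4.11 in distal Cdx2-sgRNA organoids. In WENR-plus medium it was 0.648 and 0.602, 0.701 and 0.856, 0.809 and 0.536, and 0.985 and 0.942 in the same order. For the B class alone, the ratio of both ephrin-B genes to the 4 EphB genes ran from 1.16 to 4.37 in WENR-minus and from 0.339 to 0.597 in WENR-plus libraries, so that ephrin-B transcripts outnumbered EphB transcripts in 1 medium and the reverse held in the other. These sums are a description and were not tested.

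**Figure D1:**
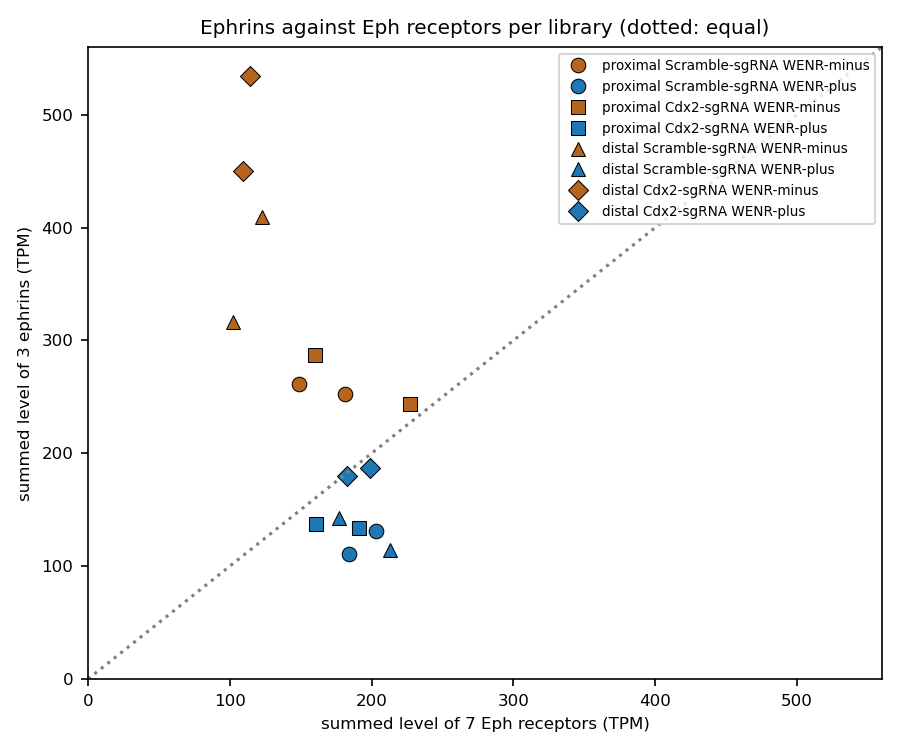
Summed TPM of the 7 Eph receptors against that of the 3 ephrins, 1 point per library, with the line where both sums are equal. All 8 WENR-minus libraries lie on the ephrin side of the line and all 8 WENR-plus libraries on the receptor side, with the distal Cdx2-sgRNA WENR-minus pair at 534 and 450 TPM of ephrins.

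**Figure D2:**
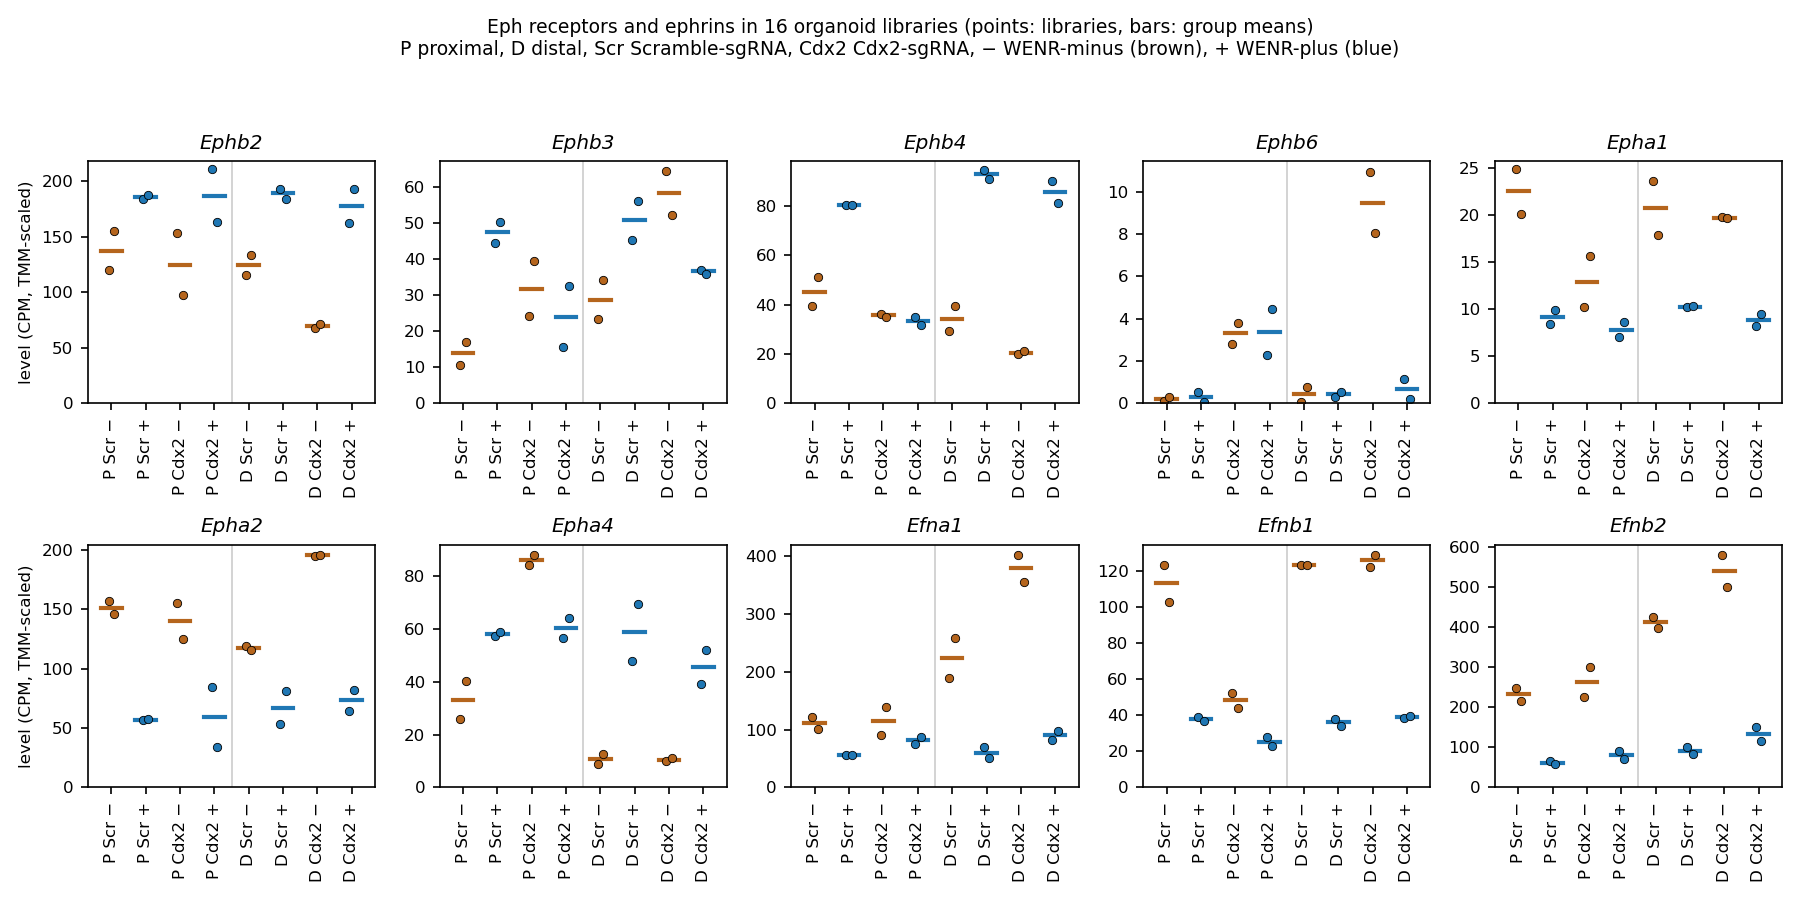
Level of each of the 10 genes in CPM on linear axes that start at 0 and differ between genes, with points for libraries and bars for the means of the 8 groups (brown WENR-minus, blue WENR-plus). Efnb2 and Efnb1 are higher in WENR-minus than in WENR-plus libraries within each region and guide, Ephb4 stays low in both proximal Cdx2-sgRNA groups, and Ephb6 is at most 0.788 CPM in Scramble-sgRNA libraries.

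Among the EphB receptors, Ephb2 (chr4:136647539-136835988, minus strand, GRCm38) encodes a receptor widely used as a surface marker of intestinal stem and progenitor cells. In WENR-minus medium it stood at 120 and 155 CPM in proximal Scramble-sgRNA, 153 and 97.3 in proximal Cdx2-sgRNA, 116 and 134 in distal Scramble-sgRNA and 67.4 and 71.1 in distal Cdx2-sgRNA organoids. In WENR-plus medium it stood at 184 and 188, 211 and 163, 193 and 184, and 162 and 193 CPM in the same order. The 8 WENR-plus libraries ran from 162 to 211 CPM and lay above all 8 WENR-minus libraries, and the distal Cdx2-sgRNA pair in WENR-minus medium was the lowest of all. Ephb2 rose with WENR-plus medium in distal Cdx2-sgRNA organoids, by 1.36 (SE 0.22, adjusted p = 0.000374). In the other media comparisons the value was 0.44 in proximal Scramble-sgRNA (adjusted p = 0.149), 0.58 in proximal Cdx2-sgRNA (adjusted p = 0.0978) and 0.60 in distal Scramble-sgRNA organoids (adjusted p = 0.0441), short of the fold threshold. The guide gave -0.13 in proximal WENR-minus, 0.01 in proximal WENR-plus and -0.09 in distal WENR-plus organoids (adjusted p = 0.67, 0.99 and 0.986). With Cdx2-sgRNA in distal WENR-minus organoids Ephb2 was lower by a log2 value of -0.85 (SE 0.22, adjusted p = 0.032), again short of the fold threshold. Among Cdx2-sgRNA WENR-minus organoids it was higher in proximal than in distal ones by 0.85 (adjusted p = 0.00706), and without proximal replicate 2, the lower library of that pair, by 1.11 (adjusted p = 0.00142). Without the same library the effect of the guide in WENR-minus medium differed between regions by 1.00 (adjusted p = 0.0297), a difference not called with all libraries. In TPM the 4 WENR-plus groups had the highest means. The lowest of them did not overlap the next group in the order (79.2 ± 3.96 against 60.2 ± 10.3, SD, n = 2), but proximal Cdx2-sgRNA WENR-minus replicate 1 (81.1 TPM) lay among the WENR-plus libraries. Distal Cdx2-sgRNA WENR-minus organoids were separate at the bottom (21.1 ± 2.93).

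Ephb3 (chr16:21204755-21223305, plus strand) encodes the second EphB receptor of the crypt base, which acts beside Ephb2 and overlaps with it in function. In WENR-minus medium its level was 10.7 and 17 CPM in proximal Scramble-sgRNA, 24.1 and 39.3 in proximal Cdx2-sgRNA, 23.3 and 34.1 in distal Scramble-sgRNA and 64.4 and 52.1 in distal Cdx2-sgRNA organoids. WENR-plus levels were 44.5 and 50.1, 15.5 and 32.4, 45.3 and 56.1, and 37 and 35.9 CPM in the same order. The order of the media in CPM was not the same for both guides: in Scramble-sgRNA organoids the WENR-plus libraries were higher without overlap, in distal Cdx2-sgRNA organoids they were lower without overlap, and in proximal Cdx2-sgRNA organoids the media overlapped. In TPM the media also overlapped in distal Cdx2-sgRNA organoids (17.8 and 14.3 against 16 and 15.4 TPM). Ephb3 rose with WENR-plus medium in proximal Scramble-sgRNA organoids, by 1.76 (SE 0.36, adjusted p = 0.00438), although without replicate 1 of the WENR-minus group the value was 1.45 (adjusted p = 0.0591). The corresponding values were 0.82 (adjusted p = 0.0846) in distal Scramble-sgRNA and -0.68 (adjusted p = 0.136) in distal Cdx2-sgRNA organoids.

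The medium effect on Ephb3 differed between guides in proximal organoids by -2.17 (SE 0.50, adjusted p = 0.0396). That difference kept its sign when any 1 of the 8 libraries was left out (-2.79 to -1.73) but missed the threshold without proximal Cdx2-sgRNA WENR-minus replicate 2 (-1.73, adjusted p = 0.129), WENR-plus replicate 1 (-1.73, adjusted p = 0.0733), Scramble-sgRNA WENR-minus replicate 1 (-1.87, adjusted p = 0.147) and Scramble-sgRNA WENR-plus replicate 1 or 2 (-2.22 and -2.07, adjusted p = 0.106 and 0.129). It was also missed with length-scaled counts (-2.19, adjusted p = 0.0708), with protein-coding transcripts only (-1.91, adjusted p = 0.0681) and in a fit of the proximal libraries alone (-2.16, adjusted p = 0.125). In distal organoids the same difference was -1.49 (SE 0.50, adjusted p = 0.378). With Cdx2-sgRNA, Ephb3 rose in proximal WENR-minus organoids by 1.19 (SE 0.36, adjusted p = 0.0265), and the call was lost without Scramble-sgRNA replicate 1 (0.93, adjusted p = 0.176) or Cdx2-sgRNA replicate 2 (0.79, adjusted p = 0.207). It was lost as well with protein-coding transcripts only (adjusted p = 0.0547) and in a fit of those 4 libraries alone (1.25, adjusted p = 0.0613). In 3 further comparisons Ephb3 missed the call and passed it with the replicate number as a block. The guides differed in distal WENR-minus organoids by 1.02 (adjusted p = 0.0934, with the block 1.07 and 0.0339, by DESeq2 1.04 and 0.0356). In proximal WENR-plus organoids they differed by -0.98 (adjusted p = 0.0635, with the block -1.03 and 0.0201), or -1.61 (adjusted p = 0.0178) without Cdx2-sgRNA replicate 2. The 2 regions differed in Scramble-sgRNA WENR-minus organoids by -1.05 (adjusted p = 0.0893, with the block -1.05 and 0.0368, by DESeq2 -1.10 and 0.0261). With Cdx2-sgRNA the regions gave a call only where a proximal library was left out, at -1.30 without WENR-minus replicate 2 and at -1.24 without WENR-plus replicate 2 (adjusted p = 0.038 and 0.045).

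Ephb4 (chr5:137350109-137378669, plus strand), best known as the venous receptor of ephrin-B2, is also made by intestinal epithelial cells. Its WENR-minus levels were 39.3 and 51.2 CPM in proximal Scramble-sgRNA, 36.4 and 35.2 in proximal Cdx2-sgRNA, 29.2 and 39.4 in distal Scramble-sgRNA and 20.1 and 21.2 in distal Cdx2-sgRNA organoids. Its WENR-plus levels were 80.3 and 80.5, 35.2 and 31.8, 94.6 and 91.1, and 90.1 and 81.1 CPM in the same order. Hence 3 of the 4 WENR-plus groups lay at or above 80.3 CPM, and proximal Cdx2-sgRNA organoids stayed below 40 CPM in either medium. Ephb4 rose with WENR-plus medium in distal Scramble-sgRNA organoids by 1.44 (SE 0.17, adjusted p = 0.000102) and in distal Cdx2-sgRNA organoids by 2.05 (SE 0.17, adjusted p = 7.8e-06), and in proximal Scramble-sgRNA organoids it was higher by 0.83 (SE 0.16, adjusted p = 0.00347), under the fold threshold.

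In proximal WENR-plus organoids Ephb4 fell by 1.26 with Cdx2-sgRNA (SE 0.16, adjusted p = 0.000359), a 2.4-fold lower level, and the call held whichever of the 4 libraries was left out (-1.34 to -1.19). In distal WENR-plus organoids both guides gave values between 81.1 and 94.6 CPM, and the effect of the guide differed between regions by -1.14 (SE 0.23, adjusted p = 0.0143). That difference missed the threshold without replicate 1 of proximal Scramble-sgRNA (-1.13, adjusted p = 0.0511) or of distal Cdx2-sgRNA organoids (-1.04, adjusted p = 0.0656), and without replicate 2 of proximal Cdx2-sgRNA (-1.07, adjusted p = 0.0601) or of distal Scramble-sgRNA organoids (-1.13, adjusted p = 0.0567). With protein-coding transcripts only it came under the fold threshold (adjusted p = 0.0282). Ephb4 was also lower in proximal than in distal Cdx2-sgRNA organoids in WENR-plus medium, by a log2 value of -1.35 (SE 0.16, adjusted p = 0.000216). In WENR-minus medium the order of the regions was the opposite, with proximal Cdx2-sgRNA organoids higher by 0.80 (SE 0.17, adjusted p = 0.00231), under the fold threshold. The medium effect in proximal organoids was smaller with Cdx2-sgRNA than with Scramble-sgRNA by a log2 value of -0.92 (SE 0.23, adjusted p = 0.0472), also under it, and was -1.08 (adjusted p = 0.0301) without Scramble-sgRNA WENR-minus replicate 2.

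Ephb6 (chr6:41605482-41620509, plus strand) encodes a receptor whose kinase domain is inactive and which signals through its partners. Each of the 8 Scramble-sgRNA libraries held at most 11 of its reads (0.0592 to 0.788 CPM), so it passed the filter on low counts through its level in Cdx2-sgRNA libraries and had to differ somewhere. With Cdx2-sgRNA it reached 2.82 and 3.81 CPM in proximal WENR-minus, 2.26 and 4.44 CPM in proximal WENR-plus, 10.9 and 8.03 CPM in distal WENR-minus and 1.15 and 0.212 CPM in distal WENR-plus organoids. The first 3 of these pairs lay above every Scramble-sgRNA library, and the last pair did not.

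Ephb6 rose with Cdx2-sgRNA by 3.85 in proximal WENR-minus (SE 1.03, adjusted p = 0.0153), by 3.43 in proximal WENR-plus (SE 0.98, adjusted p = 0.0264) and by 4.41 in distal WENR-minus organoids (SE 1.01, adjusted p = 0.022). With length-scaled counts all 3 calls were lost, at 1.43 (adjusted p = 0.389), 3.91 (adjusted p = 0.0588) and 2.19 (adjusted p = 0.28). Each call was also lost in some or all fits without 1 library, which leave a single library in that group. In proximal WENR-minus medium it was lost without Scramble-sgRNA replicate 1 (3.41, adjusted p = 0.108), Scramble-sgRNA replicate 2 (4.65, adjusted p = 0.0556) or Cdx2-sgRNA replicate 2 (3.62, adjusted p = 0.0576), and in proximal WENR-plus medium without Scramble-sgRNA replicate 2 (2.69, adjusted p = 0.154) or Cdx2-sgRNA replicate 2 (2.87, adjusted p = 0.112). In distal WENR-minus medium it was lost without any 1 of the 4 libraries: Scramble-sgRNA replicate 1 (3.57, adjusted p = 0.106) or 2 (6.81, adjusted p = 0.0672), and Cdx2-sgRNA replicate 1 (4.17, adjusted p = 0.0767) or 2 (4.61, adjusted p = 0.07). Within distal Cdx2-sgRNA organoids Ephb6 fell by 3.80 with WENR-plus medium (SE 0.95, adjusted p = 0.00635), and without WENR-plus replicate 2 the value was -3.07 (adjusted p = 0.0539). The summed immune markers were also higher in Cdx2-sgRNA than in Scramble-sgRNA libraries of both regions, and their part in these values was not tested.

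Of the EphA receptors, Epha1 (chr6:42358487-42373268, minus strand) encodes the founding member of the family, found in many epithelia. With WENR-minus medium it stood at 24.8 and 20.1 CPM in proximal Scramble-sgRNA, 10.2 and 15.6 in proximal Cdx2-sgRNA, 23.6 and 17.8 in distal Scramble-sgRNA and 19.8 and 19.6 in distal Cdx2-sgRNA organoids. With WENR-plus medium it stood at 8.41 and 9.94, 7.02 and 8.62, 10.2 and 10.3, and 8.2 and 9.42 CPM in the same order. Within each region and guide every WENR-minus library was above every WENR-plus library. Epha1 fell with WENR-plus medium by 1.29 in proximal Scramble-sgRNA (SE 0.23, adjusted p = 0.00225), by 1.02 in distal Scramble-sgRNA (SE 0.23, adjusted p = 0.00465) and by 1.16 in distal Cdx2-sgRNA organoids (SE 0.23, adjusted p = 0.00169). Without distal Scramble-sgRNA WENR-minus replicate 1 the second of these was -0.80 (adjusted p = 0.0514). Under a filter of at least 10 counts in each library it was -0.95 (adjusted p = 0.0046), under the fold threshold. In proximal Cdx2-sgRNA organoids the value was -0.73 (adjusted p = 0.0614), and Cdx2-sgRNA gave -0.79 in proximal WENR-minus organoids (adjusted p = 0.0227), neither past both thresholds. The former was -1.03 (adjusted p = 0.0294) without Cdx2-sgRNA WENR-minus replicate 1 and the latter -1.14 (adjusted p = 0.0133) without Cdx2-sgRNA replicate 2.

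Epha2 (chr4:141301240-141329384, plus strand) encodes a receptor of ephrin-A1 that is abundant in many epithelia and carcinomas. Its WENR-minus levels were 157 and 146 CPM in proximal Scramble-sgRNA, 155 and 125 in proximal Cdx2-sgRNA, 119 and 116 in distal Scramble-sgRNA and 195 and 196 in distal Cdx2-sgRNA organoids. Its WENR-plus levels were 56.5 and 57.5, 84.3 and 34.3, 53.2 and 81.2, and 64.4 and 81.9 CPM in the same order. In CPM all 8 WENR-plus libraries lay below all 8 WENR-minus libraries, and distal Cdx2-sgRNA WENR-minus organoids were highest. In TPM the media overlapped in distal Scramble-sgRNA organoids (36.1 and 37.3 against 22.7 and 36.3 TPM), and proximal Cdx2-sgRNA WENR-minus organoids had the highest mean (66.3 TPM). Epha2 fell with WENR-plus medium by 1.41 in proximal Scramble-sgRNA (SE 0.33, adjusted p = 0.00932), by 1.24 in proximal Cdx2-sgRNA (SE 0.33, adjusted p = 0.0319) and by 1.42 in distal Cdx2-sgRNA organoids (SE 0.33, adjusted p = 0.00445), and in distal Scramble-sgRNA organoids the value was -0.80 (adjusted p = 0.0728) or, without WENR-plus replicate 2, -1.23 (adjusted p = 0.0437). The first call was lost without WENR-plus replicate 2 (-1.46, adjusted p = 0.0511). The second was lost without WENR-minus replicate 1 (-1.12, adjusted p = 0.112) or 2 (-1.40, adjusted p = 0.0586) and without WENR-plus replicate 2 (-0.73, adjusted p = 0.129), and in a fit of those 4 libraries alone its adjusted p was 0.218. No comparison of guides or regions called Epha2, except that proximal was below distal by -1.11 (adjusted p = 0.0121) with Cdx2-sgRNA in WENR-plus medium once proximal replicate 1 was left out.

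Since members moved with a medium that holds Wnt3a and with a guide against Cdx2, the windows from 250 bases before to 50 bases after the start of each gene were searched on both strands for CTTTGA, a core of TCF/LEF sites, and for TTTATG, a core of Cdx sites. RefSeq gave 11 such windows for the 10 genes on GRCm38.p6. CTTTGA was found in 1 of them, that of Epha2, against 16% of all 32851 windows, and TTTATG in 0 of them against 11.9% of all windows. With 11 windows neither count can be told from these shares, and sites outside the windows were not searched. The 250 bases upstream of Epha2 (chr4:141300971-141301220, plus strand) are shown because they hold the only match, in capitals, at bases -209 to -204 from the start. Epha2 was among the genes that were lower in WENR-plus medium, and a match is a description of letters, not of a bound site.
Epha2 upstream: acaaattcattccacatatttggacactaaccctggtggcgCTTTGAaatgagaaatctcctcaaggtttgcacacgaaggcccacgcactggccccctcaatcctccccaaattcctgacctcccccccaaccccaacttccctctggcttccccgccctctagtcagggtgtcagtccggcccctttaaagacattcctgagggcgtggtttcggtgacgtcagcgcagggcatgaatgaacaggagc

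Epha4 (chr1:77367185-77515088, minus strand) encodes the receptor that binds ligands of both ephrin classes. In WENR-minus medium its level was 25.8 and 40.1 CPM in proximal Scramble-sgRNA and 84 and 87.8 in proximal Cdx2-sgRNA organoids, against 8.7 and 12.7 in distal Scramble-sgRNA and 9.82 and 11 in distal Cdx2-sgRNA organoids. Under WENR-plus medium it was 57.3 and 58.9, 56.5 and 64, 48 and 69.4, and 39.1 and 52.1 CPM for the same groups. The regions overlapped with Scramble-sgRNA in WENR-plus medium and were far apart in WENR-minus medium, where proximal Cdx2-sgRNA organoids were the highest of all groups and both distal groups the lowest. Proximal exceeded distal organoids in WENR-minus medium by 1.62 with Scramble-sgRNA (SE 0.26, adjusted p = 0.00386) and by 3.05 with Cdx2-sgRNA (SE 0.27, adjusted p = 9.05e-06), an 8.27-fold difference. With WENR-plus medium Epha4 rose in distal organoids, by 2.45 with Scramble-sgRNA (SE 0.27, adjusted p = 7.27e-05) and by 2.13 with Cdx2-sgRNA (SE 0.27, adjusted p = 7.26e-05). In proximal organoids the medium gave 0.82 with Scramble-sgRNA (SE 0.25, adjusted p = 0.0299), under the fold threshold (1.11, adjusted p = 0.0194, without WENR-minus replicate 2), and -0.51 with Cdx2-sgRNA (adjusted p = 0.201).

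In proximal WENR-minus organoids Epha4 rose by 1.38 with Cdx2-sgRNA (SE 0.25, adjusted p = 0.00189). The effect of the guide differed between regions in that medium by 1.42 (SE 0.36, adjusted p = 0.0219), and the difference was 1.18 (adjusted p = 0.0736) without proximal Scramble-sgRNA replicate 1, 1.34 (adjusted p = 0.0733) without distal Cdx2-sgRNA replicate 1, 1.39 (adjusted p = 0.0584) without proximal Cdx2-sgRNA replicate 2 and 1.12 (adjusted p = 0.108) without distal Scramble-sgRNA replicate 2. With the replicate block 2 further differences were called. The medium effect in proximal organoids differed between guides by -1.33 (SE 0.35, adjusted p = 0.0569), which became -1.37 (adjusted p = 0.0141) with the block and -1.64 (adjusted p = 0.0321) without Scramble-sgRNA WENR-minus replicate 2. The difference between regions with Scramble-sgRNA was larger in WENR-minus than in WENR-plus medium by 1.64 (SE 0.36, adjusted p = 0.175), which became 1.60 (adjusted p = 0.0425) with the block.

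The transcripts behind the Epha4 reads could be separated only in part. Epha4-201 (6328 bases, protein coding) and Epha4-205 (6315 bases, annotated as a target of nonsense-mediated decay) differ only by 9 bases at the start and 4 at the end that Epha4-201 has and Epha4-205 lacks, and the deposited estimates gave each of them 0 reads in 7 of the 16 libraries. Together they held 48.2% to 61.5% of the reads (median 57.2%), whichever of them was given the reads. Epha4-207 (3043 bases, also annotated as a target of nonsense-mediated decay) lacks exon 2 of Epha4-201 and held 0% to 41.9% (median 30.1%), with 0 reads in 2 libraries. That exon, of 68 bases (chr1:77511683-77511750, minus strand, positions 149 to 216 of Epha4-201, after the coding start at position 58), is shown in capitals with 12 bases of the transcript on each side, because its length is not a multiple of 3 and reads over it separate the forms.
Epha4-201 exon 2: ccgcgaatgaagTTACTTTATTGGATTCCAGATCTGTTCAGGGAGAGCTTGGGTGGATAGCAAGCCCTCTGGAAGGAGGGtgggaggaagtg

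When only transcripts annotated as protein coding were summed, which drops Epha4-205 and Epha4-207 and keeps 43.8% of the reads over all libraries, the called Epha4 differences kept their sign but none passed the test: 1.47 and 2.35 for the medium in distal Scramble-sgRNA and Cdx2-sgRNA organoids (adjusted p = 0.397 and 0.158), 1.22 for the guide in proximal WENR-minus organoids (adjusted p = 0.471), 2.77 and 3.43 between regions in WENR-minus medium with Scramble-sgRNA and Cdx2-sgRNA (adjusted p = 0.211 and 0.0522) and 0.66 for the difference between regions (adjusted p = 0.845). The Epha4 results above therefore hold for the sum over all its transcripts. This fit cannot decide whether they hold for a coding form, because reads moved between Epha4-205 and the nearly identical coding transcript from library to library. The reads of that pair together stayed between 48.2% and 61.5% of the Epha4 reads.

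**Figure D3:**
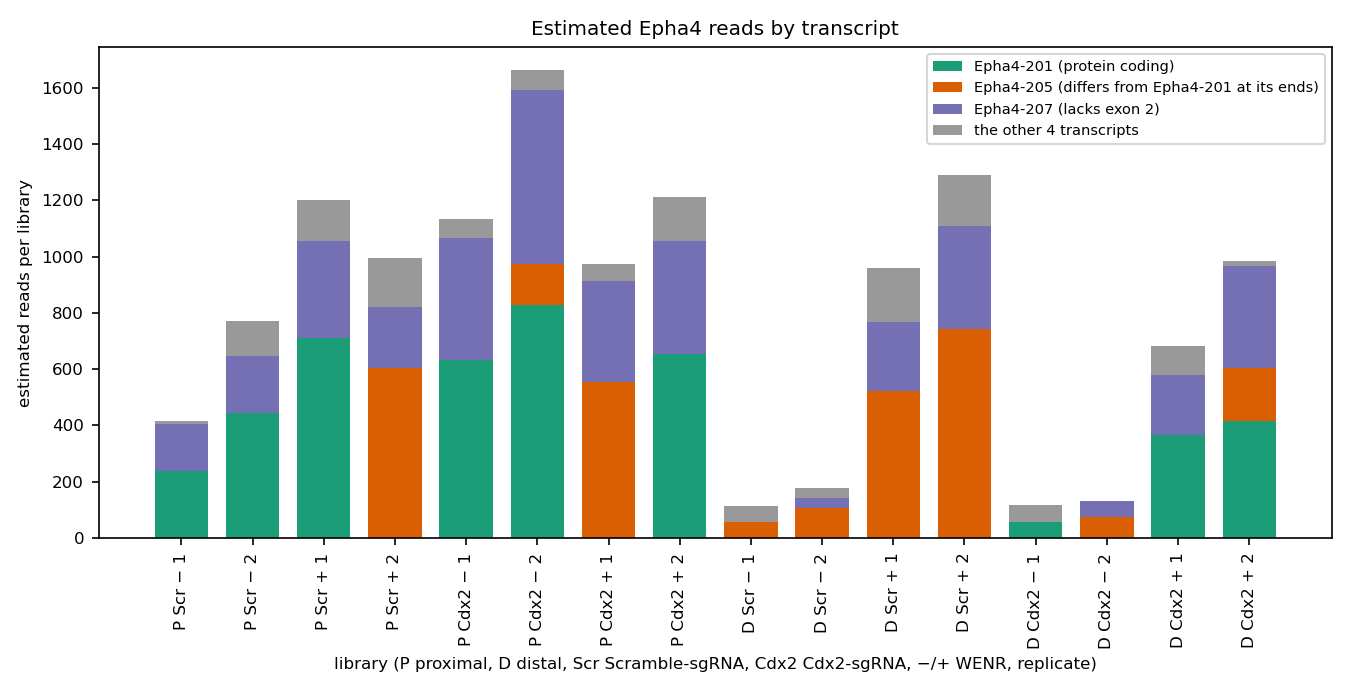
Estimated Epha4 reads in each of the 16 libraries, as bars stacked by the transcript they were given to (Epha4-201, Epha4-205, Epha4-207 and the other 4 transcripts). The reads move between Epha4-201 and Epha4-205 from library to library, each being at 0 in 7 libraries, while their sum stays between 48.2% and 61.5% of each bar.

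Among the ligands, Efna1 (chr3:89271733-89281142, minus strand) encodes ephrin-A1, a ligand of Epha2 and other EphA receptors. Under WENR-minus medium it reached 121 and 101 CPM in proximal Scramble-sgRNA, 90.6 and 139 in proximal Cdx2-sgRNA, 189 and 259 in distal Scramble-sgRNA and 402 and 356 in distal Cdx2-sgRNA organoids. Under WENR-plus medium it was 56.2 and 55.2, 75.8 and 86.7, 69.4 and 50.2, and 81.5 and 98.2 CPM in the same order. It was thus lowest in Scramble-sgRNA organoids with WENR-plus medium and highest in distal Cdx2-sgRNA organoids without it. Efna1 fell with WENR-plus medium in distal organoids, by 1.91 with Scramble-sgRNA (SE 0.24, adjusted p = 0.000163) and by 2.08 with Cdx2-sgRNA (SE 0.24, adjusted p = 4.83e-05). In proximal organoids Efna1 was at the fold threshold and not past it with Scramble-sgRNA (SE 0.24, adjusted p = 0.00942), and the value was -0.50 with Cdx2-sgRNA (adjusted p = 0.186). The former was called without WENR-minus replicate 2 (-1.19, adjusted p = 0.0129) or WENR-plus replicate 1 (-1.06, adjusted p = 0.0472). Proximal was below distal in WENR-minus organoids by -1.72 with Cdx2-sgRNA (SE 0.24, adjusted p = 0.000179) and by -1.01 with Scramble-sgRNA (SE 0.24, adjusted p = 0.0209). The latter call was lost without replicate 2 of the proximal (-0.89, adjusted p = 0.163) or of the distal group (-0.76, adjusted p = 0.159). It came under the fold threshold with a filter of at least 10 counts in each library (-0.99, adjusted p = 0.0178). The guides differed in distal WENR-minus organoids by 0.76 (SE 0.23, adjusted p = 0.0639).

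Efnb1 (chrX:99136130-99148991, plus strand) encodes ephrin-B1, a transmembrane ligand of Ephb2 and Ephb3 that keeps differentiating cells apart from the crypt base. In WENR-minus medium it reached 123 and 103 CPM in proximal Scramble-sgRNA, 52.5 and 43.9 in proximal Cdx2-sgRNA, 123 and 123 in distal Scramble-sgRNA and 122 and 129 in distal Cdx2-sgRNA organoids. WENR-plus levels were 39.1 and 37, 27.8 and 22.7, 38.1 and 34.1, and 38.5 and 39.4 CPM in the same order. WENR-minus libraries were above WENR-plus libraries for each region and guide, and within a medium proximal Cdx2-sgRNA organoids were below the other groups. Efnb1 fell with WENR-plus medium by 1.57 in proximal Scramble-sgRNA (SE 0.15, adjusted p = 0.000145), by 1.77 in distal Scramble-sgRNA (SE 0.15, adjusted p = 2.65e-05) and by 1.69 in distal Cdx2-sgRNA organoids (SE 0.15, adjusted p = 1e-05), and in proximal Cdx2-sgRNA organoids the value was -0.93 (SE 0.15, adjusted p = 0.00356), under the fold threshold. That value was past it without WENR-minus replicate 2 (-1.06, adjusted p = 0.00847) or WENR-plus replicate 1 (-1.10, adjusted p = 0.00522).

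With Cdx2-sgRNA, Efnb1 fell by 1.23 in proximal WENR-minus organoids (SE 0.14, adjusted p = 0.000113), a 2.34-fold lower level. The effect of the guide differed between regions there by -1.26 (SE 0.20, adjusted p = 0.00208), and this difference passed both thresholds whichever of the 8 libraries was left out (-1.39 to -1.10). Proximal was below distal with Cdx2-sgRNA in WENR-minus medium by -1.38 (SE 0.15, adjusted p = 2.77e-05). With WENR-plus medium the guide gave -0.59 in proximal organoids (adjusted p = 0.0127), the regions differed with Cdx2-sgRNA by -0.63 (adjusted p = 0.00853) and the effect of the guide differed between regions by -0.70 (adjusted p = 0.0705), all short of the call. In TPM, proximal Cdx2-sgRNA WENR-plus organoids were separate from the next group at the bottom of the order (17.2 ± 0.5 against 25.8 ± 1.45, SD, n = 2).

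Efnb2 (chr8:8617434-8661242, minus strand) encodes ephrin-B2, the ligand of Ephb4 and other EphB receptors. Its WENR-minus levels were 248 and 216 CPM in proximal Scramble-sgRNA, 226 and 300 in proximal Cdx2-sgRNA, 425 and 399 in distal Scramble-sgRNA and 579 and 499 in distal Cdx2-sgRNA organoids. Its WENR-plus levels were 65.9 and 57.2, 90.6 and 70.4, 102 and 82.3, and 151 and 115 CPM in the same order. Every WENR-minus library was above every WENR-plus library, and within WENR-minus medium every distal library was above every proximal one. Efnb2 was the only member that fell with WENR-plus medium in all 4 comparisons: by 1.91 in proximal Scramble-sgRNA (SE 0.21, adjusted p = 0.00022), by 1.71 in proximal Cdx2-sgRNA (SE 0.21, adjusted p = 0.00117), by 2.16 in distal Scramble-sgRNA (SE 0.21, adjusted p = 4.46e-05) and by 2.01 in distal Cdx2-sgRNA organoids (SE 0.21, adjusted p = 2.4e-05). All 4 calls held when any 1 library was left out, and in a fit of the 4 proximal Cdx2-sgRNA libraries alone adjusted p was 0.122. Between regions in WENR-minus medium the value was -1.03 with Cdx2-sgRNA (SE 0.20, adjusted p = 0.00153), and it came under the fold threshold without proximal replicate 1 (-0.84, adjusted p = 0.0165) or distal replicate 1 (-0.93, adjusted p = 0.014). The same held with protein-coding transcripts only (-0.93, adjusted p = 0.00257) and under a filter of at least 10 counts in each library (-0.98, adjusted p = 0.00149). It was -0.83 with Scramble-sgRNA in WENR-minus medium (adjusted p = 0.0253) and -0.73 with Cdx2-sgRNA in WENR-plus medium (adjusted p = 0.0197), both short of the threshold.

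Set side by side, the medium comparisons asked which members differed between WENR-plus and WENR-minus medium. In proximal Scramble-sgRNA organoids Ephb3 rose and Epha1, Epha2, Efnb1 and Efnb2 fell, 5 of the 10 genes against 17.0% of all genes tested. By adjusted p alone the count was 8, against 29.4%. In distal Scramble-sgRNA organoids Ephb4 and Epha4 rose and Epha1, Efna1, Efnb1 and Efnb2 fell, 6 of 10 against 26.4%. In distal Cdx2-sgRNA organoids Ephb2, Ephb4 and Epha4 rose and Ephb6, Epha1, Epha2, Efna1, Efnb1 and Efnb2 fell, 9 of 10 against 33.1%, or 8 of the 9 genes other than Ephb6. In proximal Cdx2-sgRNA organoids Epha2 and Efnb2 fell, 2 of 10 against 6.40%, and without Cdx2-sgRNA WENR-plus replicate 2 that count was 1. Every called rise was of a receptor and every called fall of an ephrin, of Epha1 or Epha2, or of Ephb6. The median difference over the 10 genes was -0.28, -0.44, -1.29 and -0.51 in these comparisons, against 0.06, 0.11, 0.10 and 0.03 over all genes.

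**Figure D4:**
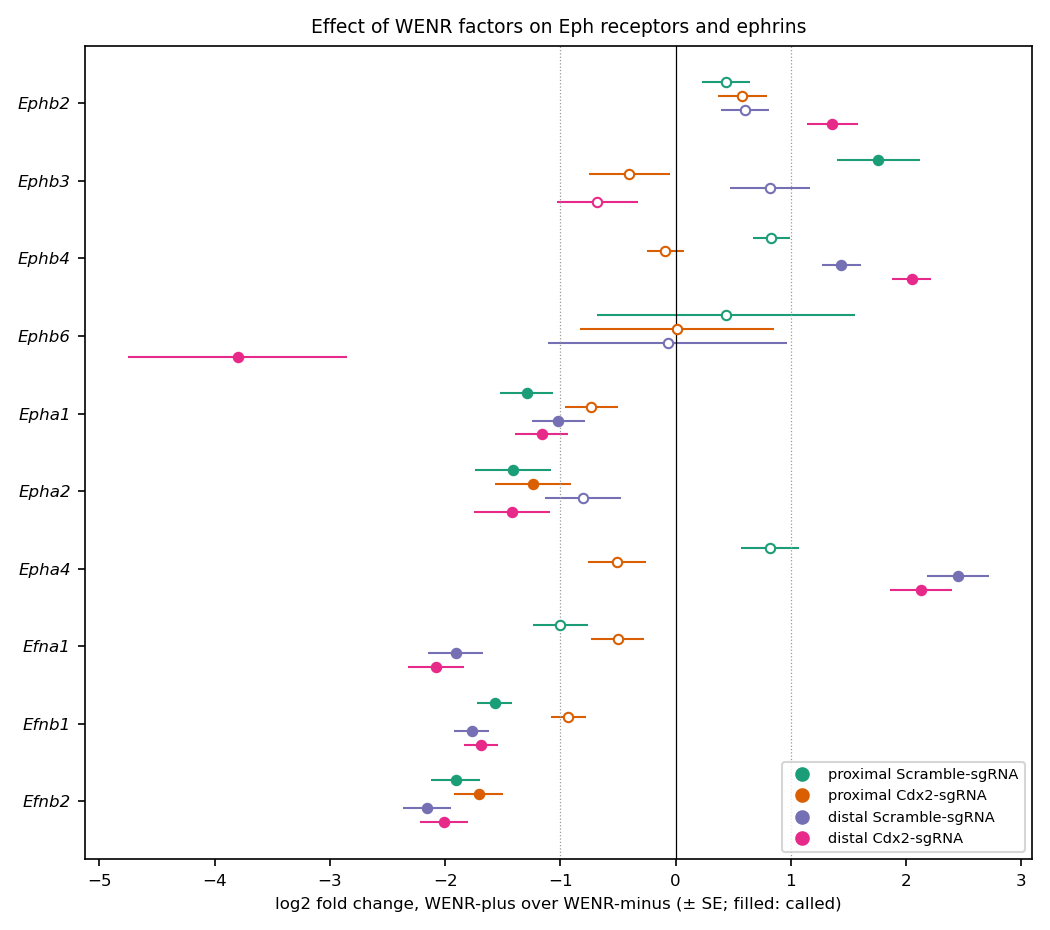
Log2 difference of WENR-plus minus WENR-minus medium with SE for the 10 genes, 1 colour for each region and guide, filled where called and with dotted lines at the fold threshold of 1. Efnb1 and Efnb2 are below 0 in all 4 comparisons (Efnb2 from -2.16 to -1.71), and Ephb4 and Epha4 are above 1 only in distal organoids.

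The same medium comparisons moved genes whose direction is known. Of 12 Wnt target genes, among them Axin2 and Lgr5, 11, 8, 9 and 9 rose with WENR-plus medium and none fell in proximal Scramble-sgRNA, proximal Cdx2-sgRNA, distal Scramble-sgRNA and distal Cdx2-sgRNA organoids, with medians of 2.54, 1.95, 2.61 and 2.91. Where genes with no more than 3 reads in each library of 1 group were set at their bound, the last 2 medians were 2.37 and 2.08. Of 8 genes of differentiated colonocytes and goblet cells, among them Krt20, Car1 and Muc2, 7, 1, 6 and 7 fell in the same order and none rose, with medians of -3.47, 0.31, -4.29 and -4.37. The summed epithelial markers were also lower in WENR-plus medium, for example 3840 and 4020 against 10600 and 9780 CPM in proximal Scramble-sgRNA organoids and 3890 and 3800 against 12300 and 12000 CPM in distal Cdx2-sgRNA organoids. The part of these shifts in the values of the Eph and ephrin genes was not tested.

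The guide comparisons asked what changed in Cdx2-sgRNA against Scramble-sgRNA organoids of the same region and medium. In proximal WENR-minus organoids Ephb3, Ephb6 and Epha4 rose and Efnb1 fell, 4 of 10 genes against 21.2% of all genes, and without Scramble-sgRNA replicate 1 the count was 2. In proximal WENR-plus organoids Ephb6 rose and Ephb4 fell, 2 of 10 against 15.9%, with a count of 1 without Scramble-sgRNA replicate 2. In distal WENR-minus organoids only Ephb6 was called, against 5.25% of all genes, and the count was 0 whichever library was left out. By adjusted p alone it was 3, against 9.76%. In distal WENR-plus organoids edgeR called 0 of the 10 genes against 0.262% of all genes, while 2 had an unadjusted p under 0.05 and DESeq2 called 0. Ephb6 is in the first 3 of these counts and passed the filter on low counts through its level with Cdx2-sgRNA, so its calls are no support for them, and the other 9 genes gave 3, 1 and 0 calls. The median difference over the 10 genes was -0.03, 0.03, 0.21 and 0.01 in these comparisons. In proximal WENR-minus organoids 6 of the 8 differentiation genes also fell with Cdx2-sgRNA, as did the epithelial marker Epcam (-1.94, adjusted p = 1.1e-05), and the summed epithelial markers were 5980 and 5860 against 10600 and 9780 CPM. Of the 12 Wnt target genes 3 rose and 2 fell there. In proximal WENR-plus organoids 4 of the 8 differentiation genes were called: Krt20 rose by 2.78 (adjusted p = 0.00515), and Car1, Muc2 and Fabp2 fell. Again 3 Wnt target genes rose and 2 fell, and the epithelial sum was 3170 and 2380 against 3840 and 4020 CPM. In distal WENR-minus organoids 1 differentiation gene rose and 1 fell, and 1 Wnt target gene rose. The summed immune markers were higher and the stromal markers lower in proximal Cdx2-sgRNA than in proximal Scramble-sgRNA libraries, as given above. The part of these markers in the values of the members was not tested.

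The region comparisons set proximal against distal organoids of the same guide and medium. With Scramble-sgRNA in WENR-minus medium Epha4 was higher and Efna1 lower in proximal organoids, 2 of 10 genes against 6.08% of all genes, and without replicate 2 of either group the count was 1. With Scramble-sgRNA in WENR-plus medium edgeR called 0 of 10, against 1.75%, with 1 at an unadjusted p under 0.05 and 0 by DESeq2. With Cdx2-sgRNA in WENR-minus medium Epha4 was higher and Efna1, Efnb1 and Efnb2 were lower in proximal organoids, 4 of 10 against 34.6%, or by adjusted p alone 7 against 49.0%. In that comparison 6 of the 8 differentiation genes were also lower in proximal organoids (median -8.57) and 6 of the 12 Wnt target genes higher. The summed epithelial markers were 5980 and 5860 against 12300 and 12000 CPM there, and the summed immune markers 25.8 and 15.9 against 3.64 and 2.26 CPM. With Scramble-sgRNA in WENR-minus medium 3 of the 8 differentiation genes were lower in proximal organoids. The part of these genes in the values of the members was not tested. With Cdx2-sgRNA in WENR-plus medium only Ephb4 was called, lower in proximal organoids, against 17.0%, or by adjusted p alone 3 genes against 29.3%, and without replicate 1 or replicate 2 of the proximal group the count was 2. There 4 of the 8 differentiation genes were called, Krt20 higher and 3 genes lower in proximal organoids, and 4 of the 12 Wnt target genes were higher. The summed immune markers were 15 and 6.29 against 2.35 and 2.38 CPM, the stromal markers 0.522 and 0.582 against 5.73 and 5.61 CPM, and the epithelial markers 3170 and 2380 against 3890 and 3800 CPM. The part of these markers was not tested either. Of the region comparisons, that with Cdx2-sgRNA in WENR-minus medium gave the lowest value for each of the 3 ephrins of the set. Against the Scramble-sgRNA value in that medium the difference was called only for Efnb1 (-1.26). It was -0.71 for Efna1 and -0.21 for Efnb2 (adjusted p = 0.163 and 0.667). Receptors went both ways there. Ephb2 and Ephb4 were higher in proximal organoids by 0.85 and 0.80 (adjusted p = 0.00706 and 0.00231), both under the fold threshold. Ephb3 (-0.88), Ephb6 (-1.51), Epha1 (-0.60) and Epha2 (-0.48) were lower, none of them called. Outside the set the ephrins Efna2, Efna4 and Efna5 were called higher in proximal organoids.

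**Figure D5:**
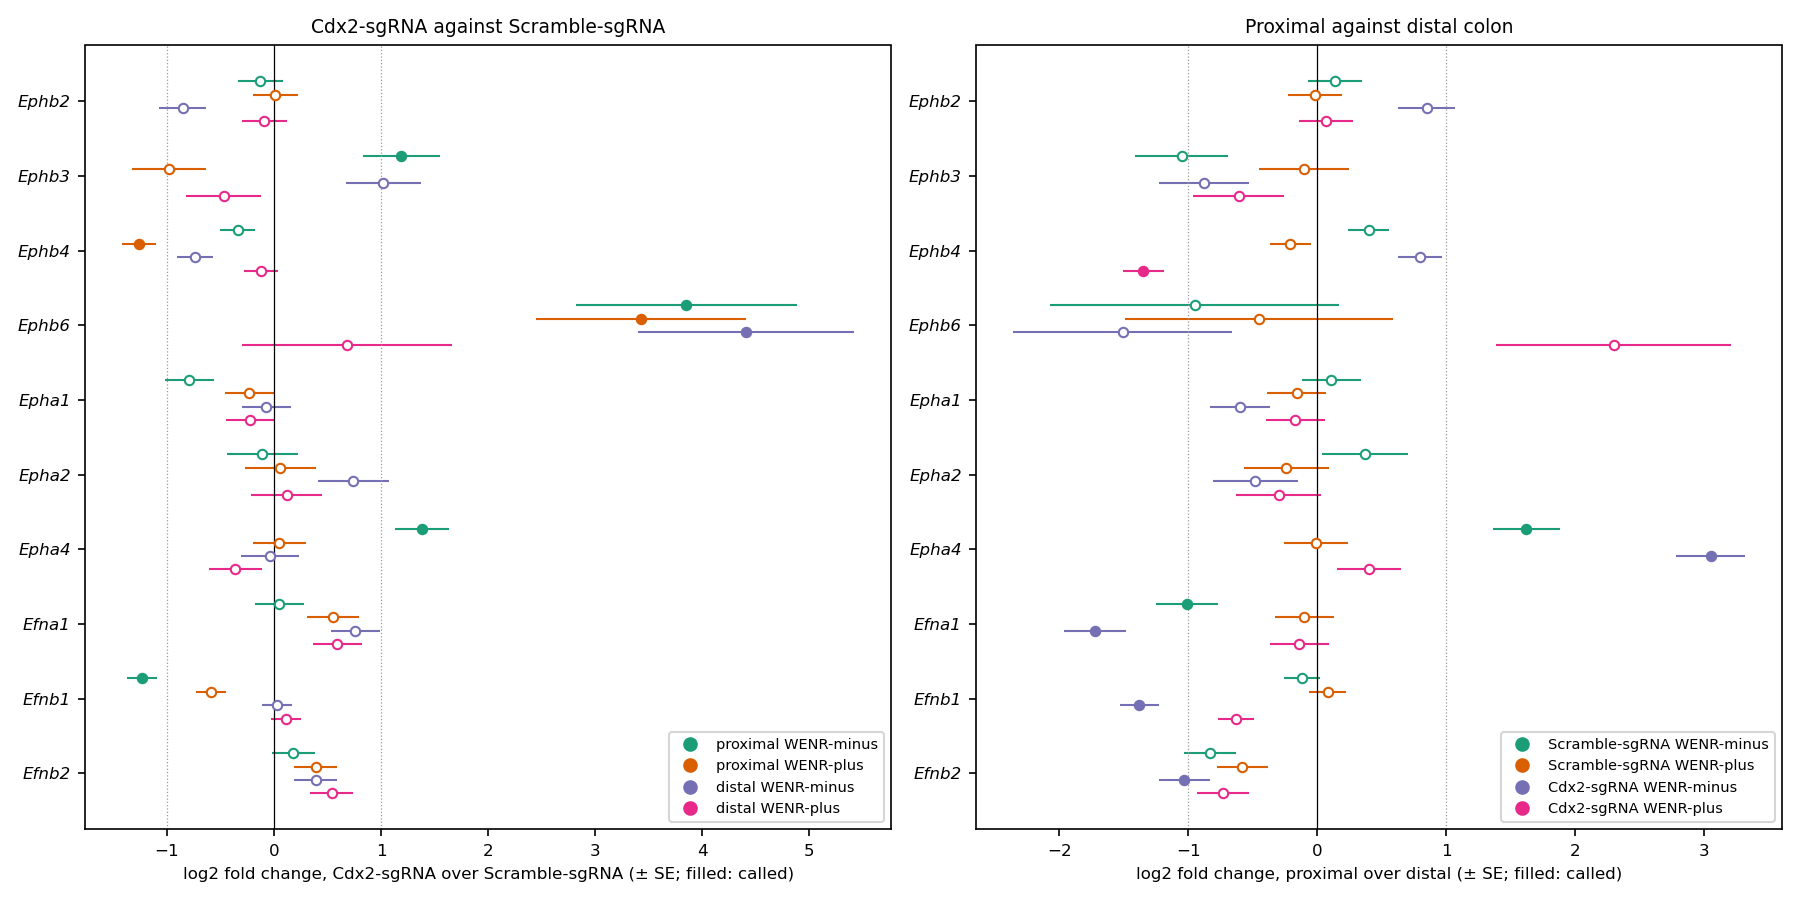
Log2 differences with SE for the 10 genes, in the left panel Cdx2-sgRNA minus Scramble-sgRNA with a colour for each region and medium, and in the right panel proximal minus distal with a colour for each guide and medium, filled where called. Epha4 reaches 3.05 between regions with Cdx2-sgRNA in WENR-minus medium, where the 3 ephrins lie at -1.72, -1.38 and -1.03, and no gene is called between regions with Scramble-sgRNA in WENR-plus medium.

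Differences between these effects were tested for all 10 genes in 5 contrasts. The effect of the guide differed between regions for Epha4 and Efnb1 in WENR-minus medium, 2 of 10 against 14.3% of all genes, with a count of 1 without proximal Scramble-sgRNA replicate 1, distal Cdx2-sgRNA replicate 1 or distal Scramble-sgRNA replicate 2. In WENR-plus medium it differed for Ephb4, 1 of 10 against 4.98%, and the count was 0 in the 4 fits without a library named above for Ephb4. The WENR-minus contrast also called 6 of the 8 differentiation genes, all lower (median -4.04), and 4 of the 12 Wnt target genes, 3 higher and 1 lower. Their part in the values of Epha4 and Efnb1 was not tested. The WENR-plus contrast called 2 of the 8, both lower, and the contrast of the medium between guides in proximal organoids 3 of the 8, all higher. The effect of the medium differed between guides in proximal organoids for Ephb3, 1 of 10 against 3.60%, or by adjusted p alone 2 against 4.38%. That count was 0 without any 1 of the 5 libraries named above for Ephb3 and was 3 without Scramble-sgRNA WENR-minus replicate 2, when Ephb4 (-1.08, adjusted p = 0.0301) and Epha4 (-1.64, adjusted p = 0.0321) were also called. In distal organoids edgeR called 0 of the 10 genes and 0.00% of all genes for that contrast, while 4 members had an unadjusted p under 0.05 and DESeq2 called 0. The difference between regions did not pass between media for any of the 10 in Scramble-sgRNA organoids, against 0.0719% of all genes, while 3 had an unadjusted p under 0.05 and DESeq2 called 1.

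By mean TPM over all libraries, the other 12 Eph and ephrin genes were below every member except Ephb6 (1.04). Efna4 (5.03), Efna5 (4.27), Efna3 (2.66) and Epha3 (1.39) were above Ephb6. Epha6, Epha8, Epha10 and Ephb1 had no reads in any library, Epha5 at most 3 and Efnb3 at most 10. Epha3, an EphA receptor best known from the nervous system, was nearly confined to proximal organoids, with 46 and 56 reads in Scramble-sgRNA WENR-minus, 369 and 120 in Scramble-sgRNA WENR-plus, 1 and 1 in Cdx2-sgRNA WENR-minus and 1 and 133 in Cdx2-sgRNA WENR-plus libraries, against at most 1 read in each distal library. Against 3 reads a library, proximal Scramble-sgRNA WENR-minus organoids were at least 12.9-fold higher than distal ones (adjusted p = 0.0492), a call lost without any 1 of the 4 libraries. Calls with 1 or 2 reads in the lower group are given as reads: those of Epha3 above, and Epha7, with 21 and 8 reads in proximal Cdx2-sgRNA WENR-minus libraries against 0 and 1 with Scramble-sgRNA and 1 and 0 in the distal pair. Efna2 had 7 and 18 reads in proximal and none in distal Cdx2-sgRNA WENR-minus libraries, at least 2.92-fold higher (adjusted p = 0.00622), and Efna4 was higher by 1.40 in the same comparison (adjusted p = 0.0309, held in 2 of 4 fits without a library). Efna2 was also called between the media in distal Cdx2-sgRNA organoids, on 3 and 5 reads against none. Epha3, Epha7 and Efna2 passed the filter on low counts only through the libraries in which they were high, so their calls are a description of genes kept by such a difference.

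Efna5, which encodes an ephrin-A ligand, had the highest median of these 12, 9.09 CPM, and stood at 10.5 and 9.64 CPM in proximal Scramble-sgRNA, 33.4 and 23.9 in proximal Cdx2-sgRNA, 1.77 and 1.72 in distal Scramble-sgRNA and 8.55 and 7.11 in distal Cdx2-sgRNA organoids without WENR factors. In that medium it was thus above its Scramble-sgRNA pair in both regions and higher in proximal organoids with either guide. In WENR-plus medium it stood at 9.84 and 5.21, 21.1 and 13, 1.35 and 3.82, and 7.74 and 20.2 CPM in the same order. There the regions overlapped with Cdx2-sgRNA, and no comparison of guides or regions called it. In WENR-minus medium it rose with Cdx2-sgRNA by 1.51 in proximal (adjusted p = 0.0433) and by 2.16 in distal organoids (adjusted p = 0.0373), and proximal exceeded distal by 2.52 with Scramble-sgRNA (adjusted p = 0.018) and by 1.87 with Cdx2-sgRNA (adjusted p = 0.0118). Leaving out any 1 library lost the first 3 calls, and the last held in 2 of the 4 such fits.

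Among 30 genes that act on or below Eph receptors, of which 29 were tested, 3 rose and 2 fell with WENR-plus medium in proximal Scramble-sgRNA, 1 and 2 in proximal Cdx2-sgRNA, 3 and 5 in distal Scramble-sgRNA and 3 and 6 in distal Cdx2-sgRNA organoids. The shares of all genes called in these comparisons were 17.0%, 6.40%, 26.4% and 33.1% in the same order. The medians were -0.34, -0.37, -0.45 and -0.47, against 0.06, 0.03, 0.11 and 0.10 over all genes. Tiam1, an exchange factor for Rac that binds Eph receptors and ephrin-B ligands, rose in all 4 comparisons, by 2.47, 1.72, 2.08 and 1.85 (adjusted p = 0.0014, 0.0168, 0.00167 and 0.00235), for example from 10.7 to 59.2 CPM in proximal Scramble-sgRNA organoids. The second of these calls held in 2 of the 4 fits that left out a library and the others in all 4. Kalrn, an exchange factor used by EphB receptors, fell in distal organoids, at -4.15 with Scramble-sgRNA and -4.40 with Cdx2-sgRNA (adjusted p = 0.0134 and 0.0123), each held in 2 of 4 such fits. The lowest value in proximal Cdx2-sgRNA organoids was that of Adam10, the protease that sheds ephrins and EphB receptors, at -1.28 (adjusted p = 0.00142, held in all 4 fits). The highest in distal Cdx2-sgRNA organoids was that of Vav3, an exchange factor of the Vav family, at 1.87 (adjusted p = 0.00548).

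With Cdx2-sgRNA, 1 of these genes rose and 2 fell in proximal WENR-minus, 0 and 5 in proximal WENR-plus, 0 and 1 in distal WENR-minus and 0 and 0 in distal WENR-plus organoids, where 21.2%, 15.9%, 5.25% and 0.262% of all genes were called. Adam10 was the gene that rose, from 309 to 624 CPM (1.02, SE 0.16, adjusted p = 0.000781), a value just past the fold threshold that 3 of 4 fits without a library kept. The lowest called values were those of Abl1, a kinase below EphB receptors, at -1.33 in proximal WENR-minus organoids (adjusted p = 0.000156), and of Vav3, at -2.40 in distal WENR-minus organoids (adjusted p = 0.0112, held in 1 of 4 fits). In proximal WENR-plus organoids the called values ran down from that of Anks1, just past the fold threshold (adjusted p = 0.00109, held in 2 of 4 fits), to Fyn, a Src-family kinase below Eph receptors, which had 0 reads with Cdx2-sgRNA against 19 with Scramble-sgRNA, at least 3.04-fold lower (adjusted p = 0.0231, held in 0 of 4 fits).

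Between regions, 1 was higher and 1 lower in proximal organoids with Scramble-sgRNA in WENR-minus medium, 1 and 0 in WENR-plus medium, and with Cdx2-sgRNA 2 and 7 and 2 and 5, where 6.08%, 1.75%, 34.6% and 17.0% of all genes were called. Vav2, an exchange factor that binds activated Eph receptors, was higher in proximal organoids in all 4 comparisons, for example at 20 against 1.4 CPM with Scramble-sgRNA in WENR-minus medium (3.83, SE 0.32, adjusted p = 6.75e-05) and at 27.3 against 0.674 CPM with Cdx2-sgRNA (5.32, SE 0.35, adjusted p = 1.07e-06). The WENR-plus values were 1.79 with Scramble-sgRNA (adjusted p = 0.00879, held in 1 of 4 fits) and 3.55 with Cdx2-sgRNA (adjusted p = 1.98e-05). At the low end were Rgs3, which binds ephrin-B tails, at -1.26 with Scramble-sgRNA in WENR-minus medium (adjusted p = 0.0298, held in 1 of 4 fits), and Fyn with Cdx2-sgRNA, which had 0 reads in proximal organoids against 11 in WENR-minus and 73 in WENR-plus distal libraries, at least 2.44-fold (adjusted p = 0.0164, held in 1 of 4 fits) and 12.4-fold lower (adjusted p = 0.00421, held in all 4). The effect of the guide differed between regions for 5 of these genes in WENR-minus medium (Vav2 1.50 and Ngef -1.36 at the ends, adjusted p = 0.0446 and 0.0225) against 14.3% of all genes, and for 4 in WENR-plus medium, against 4.98% (Vav2 1.77 highest, adjusted p = 0.0284, and Fyn lowest, with 0 reads in proximal Cdx2-sgRNA libraries). Fyn too passed the filter on low counts through the libraries in which it was high.

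The pattern of each member over the 16 libraries was compared with those of the 9908 genes whose mean was at least 5 CPM, by Pearson's r of log2(CPM + 1). The libraries share media, guides and mice, so r is a description. The genes most like Ephb4 were Tcof1 (r = 0.986) and L3mbtl2 (0.978), those most like Ephb2 were Ak6 (0.972) and Dap3 (0.96), and those most like Epha4 were Knop1 (0.969) and Srsf6 (0.961). On the ligand side Efnb1 was closest to Etfdh (0.992) and Misp (0.991), Efnb2 to B3gnt3 (0.981) and Mxd1 (0.981), and Efna1 to Kif13b (0.98) and Rhob (0.98). Epha1 was closest to Hook2 (0.964) and Epha2 to Ctnnd1 (0.953), while Ephb3 reached only 0.815, with Usp54, and Ephb6 0.897, with Tchh. Among the members themselves r was highest for Epha1 with Efnb1 (0.926) and Efna1 with Efnb2 (0.917), lowest for Ephb2 with Efna1 (-0.891), and between -0.215 and 0.325 for Ephb3 with every other member (n = 16 libraries for each).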

How the data were processed

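The authors made stranded total RNA libraries (SMARTer kit) and quantified transcripts with Salmon 1.1.0 against GENCODE vM23 (mm10). They deposited, per library, estimated counts of reads and TPM for each transcript, and named tximport and DESeq2 for their own tests. Here the deposited estimated counts were summed over transcripts per gene with a GENCODE vM21 annotation (139864 of 140748 transcripts matched, the rest held 0.257% to 0.509% of reads) and rounded, and TPM were summed likewise, which keeps the authors' scaling. Salmon divides reads between similar transcripts, so gene sums are firmer than transcript shares. Tests used edgeR 4.0.16 (R 4.3.3): filterByExpr, TMM, 1 coefficient a group, all 16 libraries, 8 residual degrees of freedom, and thresholds of 0.05 and 1. Alternatives were DESeq2 1.42.0, other scaling, filters and counts, the replicate block and leaving out each library. Members and lists were chosen with earlier results of these data known, and each member was named with its called values. Effectors were named by the highest and lowest called change, except for 1 result that is not reported here. Replicate numbers were read as the 2 mice. Deviations of same-numbered libraries from their group means correlated between media by 0.359 to 0.64, between guides by -0.0861 to 0.217 and between regions by 0.0198 to 0.131. Replicates differed beyond counting noise in every group. The fitting was tested on simulated data. Protein sequences were not used here.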

Additional observations from a re-analysis of the deposited data

Results flagged for a closer look

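For 4 of the 10 genes the same contrast gave different effects in 2 sets of organoids, by the edgeR test of the difference itself. These calls come from separate contrasts. For the guide between regions they were 2 of 10 against 14.3% of all genes in WENR-minus medium and 1 against 4.98% in WENR-plus medium. For the medium between guides in proximal organoids it was 1 of 10 against 3.60%. The effect of Cdx2-sgRNA in WENR-minus medium was greater in proximal than in distal organoids by 1.42 for Epha4 (adjusted p = 0.0219), which went from 25.8 and 40.1 to 84 and 87.8 CPM in proximal organoids and from 8.7 and 12.7 to 9.82 and 11 CPM in distal organoids. That value kept its call in 4 of 8 fits without a library. For Efnb1 the same difference was -1.26 (adjusted p = 0.00208, held in 8 of 8 fits), with 123 and 103 against 52.5 and 43.9 CPM in proximal organoids and 123 and 123 against 122 and 129 CPM in distal organoids. The same contrast called 6 of 8 genes of differentiated colonocytes and goblet cells, all lower (median -4.04), and their part in these values was not tested. In WENR-plus medium it was -1.14 for Ephb4 (adjusted p = 0.0143, held in 4 of 8 fits), with 80.3 and 80.5 against 35.2 and 31.8 CPM in proximal organoids and 94.6 and 91.1 against 90.1 and 81.1 CPM in distal organoids. The effect of the medium in proximal organoids differed between guides by -2.17 for Ephb3 (adjusted p = 0.0396, held in 3 of 8 fits), which was higher in WENR-plus medium with Scramble-sgRNA and overlapped between media with Cdx2-sgRNA.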

How the results depend on the processing

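Of the 40 calls over 17 contrasts, all 40 were kept with DESeq2, with RLE size factors, without mitochondrial genes, without the filter on low counts and with the replicate block, and none changed sign under any setting. Leaving out each library kept 26 of the 40 calls in every fit. Ephb6 had at most 11 reads in each Scramble-sgRNA library, so its guide differences rest on few counts.

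Counts of called members that moved by more than 1.5 times, with the count under the main settings first, were these. For the medium in proximal Scramble-sgRNA organoids, 5 became 8 without the fold threshold, and in proximal Cdx2-sgRNA organoids 2 became 0 in a fit of those libraries alone. For the guide in proximal WENR-minus organoids, 4 became 2 with coding transcripts only. In proximal WENR-plus organoids 2 became 1 with at least 10 counts in every library, with length-scaled counts and with own libraries only. In distal WENR-minus organoids 1 became 2 with DESeq2, without the filter and with the replicate block, 0 with at least 10 counts or length-scaled counts, and 3 without the fold threshold. For regions, 2 became 1 with at least 10 counts or coding transcripts only (Scramble-sgRNA, WENR-minus), 4 became 2 with coding transcripts only and 7 without the fold threshold (Cdx2-sgRNA, WENR-minus), and 1 became 2 with DESeq2 or without the filter and 3 without the fold threshold (Cdx2-sgRNA, WENR-plus). For the differences of the guide effect, 2 became 1 with coding transcripts only (WENR-minus), and 1 became 2 without the filter and 0 with coding transcripts only (WENR-plus). For the difference of the medium effect in proximal organoids, 1 became 2 with DESeq2, without the filter, with at least 10 counts, with the replicate block or without the fold threshold, and 0 with length-scaled counts, coding transcripts or own libraries only. In distal organoids 0 became 2 without the filter. For the difference of the region effect 0 became 1 with DESeq2, without the filter and with the replicate block. The group with the highest level was the same for 6 of 10 genes in CPM as in TPM. The cause of these shifts was not tested.

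Leaving out 1 library gave counts of 4 to 7, 1 to 3, 5 to 7 and 8 to 9 for the medium (proximal Scramble-sgRNA, proximal Cdx2-sgRNA, distal Scramble-sgRNA, distal Cdx2-sgRNA), of 2 to 4, 1 to 2, 0 and 0 for the guide (proximal WENR-minus, proximal WENR-plus, distal WENR-minus, distal WENR-plus), of 1 to 2, 0, 3 to 6 and 1 to 2 for regions (Scramble-sgRNA WENR-minus and WENR-plus, Cdx2-sgRNA WENR-minus and WENR-plus), and of 1 to 2, 0 to 1, 0 to 3, 0 and 0 for the differences. With the replicate block 45 calls were made in place of 40, including all 40. The 5 added were 3 of Ephb3 and 2 of Epha4, and the block changed no other call. With coding transcripts only, 30 of the 40 calls were kept, and with length-scaled counts 36, the 4 lost being those of Ephb6 for the guide (1.43, 3.91 and 2.19) and the Ephb3 difference (-2.19).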
